A study of Mus musculus with 12 samples.

Results

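Carbonic anhydrases were followed across the differentiation of C2C12 cells, a mouse myoblast line whose cells stop dividing and fuse into myotubes, with and without the overexpression of PPARγ. The genes were chosen by symbol, as the rows of the expression table whose Ensembl identifiers map to *Car2*, *Car3*, *Car4*, *Car5b*, *Car8*, *Car9*, *Car12*, *Car13* and *Car14*, which gave 9 of the 46983 genes in the table. RNA was sequenced from WT cells, called the PB-IP group after the PiggyBac vector, and from PPARγ/+ cells, which carried the PPARγ coding sequence in that vector and were selected with puromycin as positive clones. Samples were taken at the start of differentiation (0d) and 5 days later (5d). Each of the 4 groups holds 3 libraries, described as biological replicates, which makes 12. The promoter that drives the transgene and the number of clones were not given in the sources used here, and the series' own design text calls the PPARγ cells inducible and the controls uninduced, which differs from the vector control of the methods. Levels are in FPKM, fragments scaled by the length of the gene and the mapped fragments of the library. They can be compared between genes and between libraries only as far as that scaling holds. Another scaling of the libraries, by median ratios, was also tried.

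Carbonic anhydrases interconvert carbon dioxide and water with bicarbonate and a proton, and so serve pH balance, carbon dioxide transport and the supply of bicarbonate to carboxylases. The family divides by place in the cell. *Car1*, *Car2*, *Car3*, *Car7* and *Car13* encode cytosolic enzymes, *Car5a* and *Car5b* mitochondrial ones, *Car4* and *Car15* enzymes anchored to the outer membrane by a lipid, and *Car9*, *Car12* and *Car14* transmembrane enzymes with an outward catalytic domain, while *Car6* is secreted and *Car8*, *Car10* and *Car11* encode related proteins that lack the catalytic activity. *Car3* is best known from skeletal muscle, above all slow fibres, and from adipocytes, and *Car9* is a classic target of the hypoxia-inducible factors. PPARγ is the nuclear receptor that drives the formation of adipocytes.

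In the GRCm38 annotation *Car13*, *Car1*, *Car3* and *Car2* lie next to each other on chromosome 3, *Car13* from 14641727 to 14663002, *Car3* from 14863512 to 14872523 and *Car2* from 14886273 to 14900770 on the plus strand, with *Car1* from 14766216 to 14808368 on the minus strand. The gaps between neighbours in that order are 103213, 55143 and 13749 bp. *Car14* lies further along the same chromosome (95897768 to 95904691, minus strand). *Car8* (8143362 to 8239041, minus strand) and *Car9* (43506966 to 43513729, plus strand) are on chromosome 4, *Car12* (66713686 to 66766845, plus strand) on chromosome 9, *Car4* (84957786 to 84966044, plus strand) on chromosome 11 and *Car5b* (163976822 to 164027997, minus strand) on chromosome X. Exons of *Car9* share 214 bp with *Gm12454* and exons of *Car14* share 445 bp with *Aph1a*, each on the other strand. The library kit does not mark strand, so reads in those stretches cannot be told apart.

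The bases before the RefSeq start site are shown for the transmembrane enzymes *Car9*, which rose in both cell types, and *Car12*, which the study itself singled out from these libraries. Promoter entries matched 5 of the 9 genes (*Car4*, *Car5b*, *Car9*, *Car12* and *Car14*). Both sequences are from RefSeq, build GRCm38.p6, plus strand, 250 bases long and read 5′ to 3′, *Car9* at chr4:43506776-43507025 and *Car12* at chr9:66713436-66713685. Capitals mark a match to CACGT, the reverse complement of ACGTG, the core of the hypoxia response element.
Car9: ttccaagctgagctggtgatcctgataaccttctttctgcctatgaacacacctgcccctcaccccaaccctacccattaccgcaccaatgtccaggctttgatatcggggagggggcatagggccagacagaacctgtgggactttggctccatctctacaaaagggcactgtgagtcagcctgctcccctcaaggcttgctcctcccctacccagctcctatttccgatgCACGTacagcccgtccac
Car12: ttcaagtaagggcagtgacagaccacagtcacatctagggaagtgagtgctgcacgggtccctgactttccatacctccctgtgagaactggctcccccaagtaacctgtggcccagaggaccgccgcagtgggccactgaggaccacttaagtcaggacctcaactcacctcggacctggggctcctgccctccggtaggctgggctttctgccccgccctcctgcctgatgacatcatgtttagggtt
The *Car9* match began at −18 from the RefSeq start site, and the GENCODE gene starts 60 bp before that site, so the match lies inside the gene as GENCODE draws it. In windows of 250 bases before to 50 after the start, the core also matched in *Car14* at −7 and in *Car4* at 3, and on either strand it was present in 19.62% of all 32851 promoters. *Car12* held no match to this core on either strand. Its window also held none to the nuclear receptor half-site AGGTCA, which 16.26% of promoters held, or to the E-box CANNTG, which 72.31% held and which overlaps the core where both read CACGTG. A match is a string of letters and not a bound site.

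The libraries held between 15557940 and 22013347 fragments on genes, with a median of 18737060. *Pparg* lay between 3.12 and 7.56 FPKM in the 6 WT libraries and between 27.98 and 92.7 FPKM in the 6 PPARγ/+ libraries, and it was called higher in PPARγ/+ cells on both days. Of the 10 myogenic markers, 8 were above 0.1 FPKM in at least 1 library of PPARγ/+_0d and all 10 in each other group. From 0d to 5d, 8 of 10 rose in WT cells and 9 of 10 in PPARγ/+ cells, beside 8.94% and 9.11% of all genes. *Myf5* fell in WT cells (log2 fold change −1.46), and its change was called different between the cell types. On 0d *Myf5* (−1.58) and *Des* (−1.41) were called lower in PPARγ/+ cells, where 1.59% of all genes were called. WT_5d replicate 3 stood apart from its group. Its *Myog*, the myogenic regulator myogenin, was at 90.0 FPKM against 271 and 215 FPKM in the other WT_5d libraries, and its mean correlation to its group was 0.9649 against 0.9692 to 0.9813 in the other 11 libraries. Results whose call or size it moved are given with and without it. Within WT_0d, replicate 2 held the most *Myog*, at 15.7 FPKM against 2.69 and 1.47 FPKM, and its mean correlation to its group was 0.9768. Leaving out WT_0d replicate 2 changed no call of a carbonic anhydrase among the 9. In a bulk sample, fewer cells of a type and less RNA per cell cannot be told apart.

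The 9 genes spanned levels from 0 to over 300 FPKM. In WT_0d cells *Car13* was highest, with a median of 88.8 FPKM, followed by *Car8* at 11.6, *Car3* at 10.9, *Car5b* at 7.27, *Car2* at 4.81 and *Car9* at 1.51 FPKM. The ranges of *Car8* and *Car3* overlapped in that group, as did those of *Car5b* and *Car2*. *Car14* (0.125 FPKM) and *Car12* (0.105 FPKM) overlapped near the floor of detection, and *Car4* was at 0. In PPARγ/+_5d cells *Car3* was highest with a median of 265 FPKM and *Car13* second with 197 FPKM, and their ranges did not overlap. There *Car2* (11.7 FPKM), *Car5b* (9.93), *Car9* (3.55) and *Car8* (0.901) followed without overlap between neighbours. *Car8* had thus gone from the second place by median to the sixth.

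**Figure D1:**
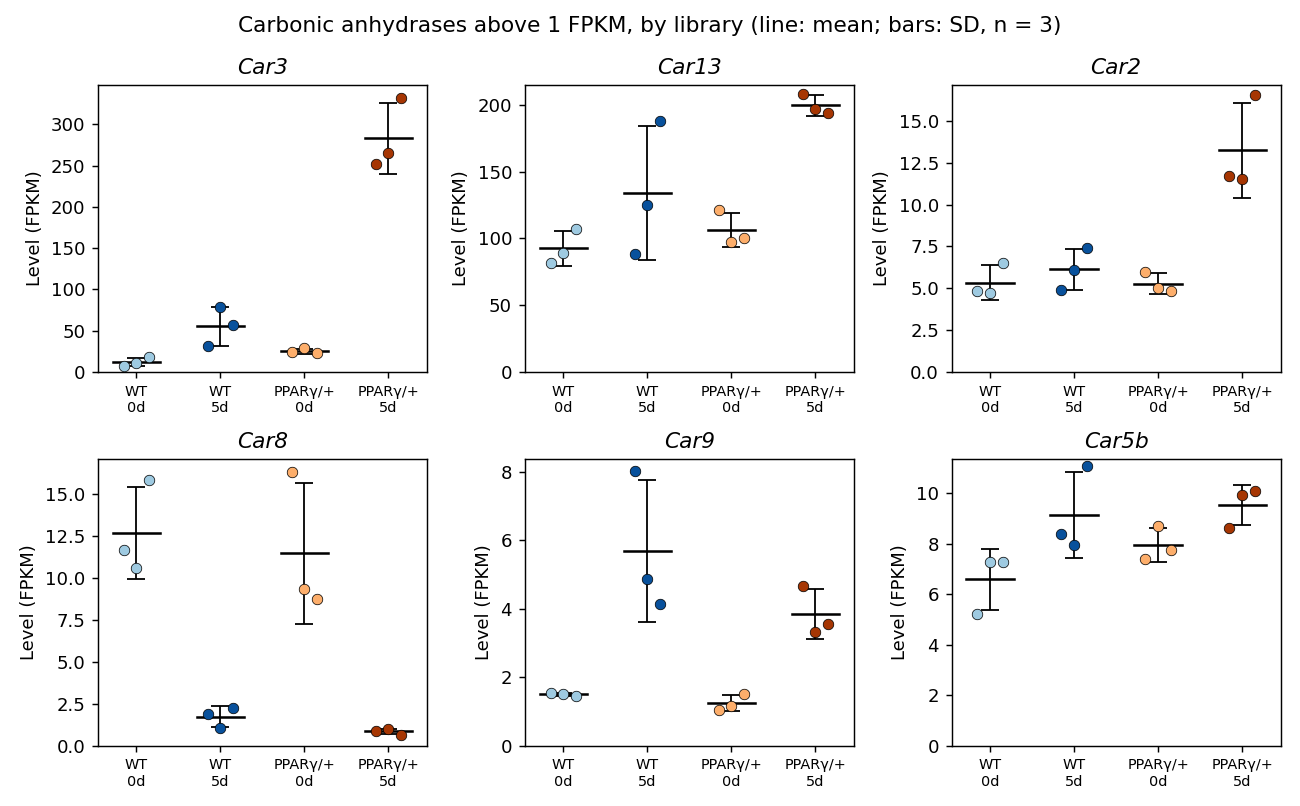
Level in FPKM (vertical axis, from 0, a scale of its own for each gene) of the 6 carbonic anhydrases with a median above 1 FPKM in at least 1 group, for each of the 4 groups; points are libraries, lines the mean and bars the SD of 3 libraries. *Car3* sits between 252 and 331 FPKM in PPARγ/+_5d and at 78.4 FPKM or less in every other library, and *Car8* is below 2.3 FPKM in all 6 libraries of 5d.

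The first comparison asks which carbonic anhydrases change when myoblasts differentiate. In WT cells *Car3* and *Car9* rose and *Car8* fell from 0d to 5d. In PPARγ/+ cells *Car3*, *Car9* and *Car2* rose and *Car8* fell. *Car3* went up 4.55-fold in the group means of WT cells and 11.2-fold in those of PPARγ/+ cells, and *Car8* went down 7.31-fold and 13.4-fold. Calls over time follow the rule of the study, an unadjusted p-value no higher than 0.05 together with a 2-fold change or more. The p-values are those of limma on log2(FPKM + 0.1), with adjusted ones given beside them. Of the 9 genes, 8 passed the filter on low values and *Car4* did not. Of these 8, 2 rose and 1 fell in WT cells, where 16.5% of all 18023 genes tested were called, 8.94% risen and 7.53% fallen. In PPARγ/+ cells 3 rose and 1 fell, where 15.2% of all genes were called, 9.11% risen and 6.06% fallen. The median log2 fold change of the 8 was 0.47 in WT and 0.59 in PPARγ/+ cells, beside −0.08 and −0.10 for all genes.

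*Car3*, the slow cytosolic enzyme of muscle and fat, was at 7.84, 10.9 and 17.8 FPKM in the WT_0d libraries and at 31.6, 78.4 and 56.4 FPKM in those of WT_5d. Its PPARγ/+_0d libraries held 23.9, 28.9 and 23.1 FPKM and its PPARγ/+_5d libraries 252, 265 and 331 FPKM. Every library of 5d was above every library of 0d in both cell types, and the PPARγ/+ libraries were above the WT libraries of the same day on both days. The mean level was 12.2 ± 5.13 FPKM (SD, n = 3) in WT_0d, 55.5 ± 23.4 in WT_5d, 25.3 ± 3.16 in PPARγ/+_0d and 283 ± 42.6 in PPARγ/+_5d. From 0d to 5d its log2 fold change was 2.16 (SE 0.41, limma adjusted p = 0.0082) in WT cells and 3.48 (SE 0.13, limma adjusted p = 1.6e-05) in PPARγ/+ cells. Without WT_5d replicate 3 the WT value was 2.10 (limma adjusted p = 0.0273).

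*Car13*, another cytosolic enzyme and the most abundant of the 9 in 3 of the 4 groups, moved less. It was at 81.8, 88.8 and 107 FPKM in WT_0d, and at 88.7, 125 and 188 FPKM in WT_5d, which overlapped. The highest WT_5d value was that of replicate 3, and without it the log2 fold change in WT cells was 0.20 (95% interval −0.29 to 0.68). In PPARγ/+ cells it was at 121, 97.7 and 99.96 FPKM on 0d and at 208, 197 and 194 FPKM on 5d, without overlap. The log2 fold change in PPARγ/+ cells was 0.92 (SE 0.09, limma adjusted p = 0.000358), short of 2-fold, and that in WT cells was 0.47 (SE 0.27, limma adjusted p = 0.218). *Car13* crossed the 2-fold line in PPARγ/+ cells with median-ratio scaling of the libraries (1.05) and without PPARγ/+_0d replicate 1 (1.01).

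*Car2*, the fast cytosolic enzyme found in many tissues, was at 4.81, 4.70 and 6.53 FPKM in WT_0d, and at 4.93, 6.08 and 7.40 FPKM in WT_5d. PPARγ/+_0d libraries held 5.97, 5.04 and 4.84 FPKM, and PPARγ/+_5d libraries 11.7, 11.5 and 16.5 FPKM. The first 3 groups overlapped one another and the PPARγ/+_5d libraries were above all 9 others. Its log2 fold change was 1.30 (SE 0.16, limma adjusted p = 0.000752) in PPARγ/+ cells and 0.19 in WT cells, with a 95% interval from −0.27 to 0.66.

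*Car1*, which lies between *Car13* and *Car3*, encodes the enzyme best known from red blood cells. It was low, with 2 to 5 fragments per library in WT_0d, 7 to 21 in WT_5d, 3 to 8 in PPARγ/+_0d and 25 to 40 in PPARγ/+_5d. It was called risen in both cell types, with log2 fold changes of 1.52 (SE 0.44) in WT and 2.29 (SE 0.28) in PPARγ/+ cells. All 4 genes of the cluster thus had positive fitted changes in both cell types. Of them, *Car13* was not called in either and *Car2* was called in PPARγ/+ cells alone.

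*Car8* encodes a protein without catalytic activity that binds the inositol trisphosphate receptor, a calcium channel of the endoplasmic reticulum. It was at 11.6, 10.6 and 15.8 FPKM in WT_0d and at 1.91, 1.04 and 2.26 FPKM in WT_5d. In PPARγ/+ cells it went from 16.3, 9.33 and 8.75 FPKM to 0.901, 0.990 and 0.670 FPKM. Every library of 5d was below every library of 0d. It fell by 2.85 on the log2 scale (SE 0.30, limma adjusted p = 0.000991) in WT cells and by 3.56 (SE 0.26, limma adjusted p = 0.000104) in PPARγ/+ cells. *Car11*, a second catalytically inactive family member, moved the other way. Its WT libraries rose from between 2.47 and 3.42 FPKM to between 12.6 and 19.2 FPKM, and its PPARγ/+ libraries from between 5.22 and 5.63 FPKM to between 16.6 and 19.9 FPKM. The log2 fold changes were 2.33 (SE 0.19) and 1.68 (SE 0.08).

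*Car9* was at 1.54, 1.51 and 1.46 FPKM in WT_0d and at 8.03, 4.88 and 4.14 FPKM in WT_5d. In PPARγ/+ cells it was at 1.05, 1.17 and 1.51 FPKM on 0d and at 4.67, 3.31 and 3.55 FPKM on 5d. The days did not overlap in either cell type, and WT and PPARγ/+ cells overlapped on both days. The log2 fold change was 1.79 (SE 0.24, limma adjusted p = 0.00249) in WT and 1.55 (SE 0.18, limma adjusted p = 0.000641) in PPARγ/+ cells. Of 19 other genes known to be induced by hypoxia, all tested, 2 rose in WT cells, where 8.94% of all genes were called risen. These were *Adm* (adrenomedullin, 1.93 on the log2 scale) and *P4ha1* (a collagen prolyl hydroxylase, 1.08). None of the 19 was called risen in PPARγ/+ cells by limma, with or without voom weights. There limma called 9.11% of all genes risen and 6.06% fallen, and the glycolytic *Pgk1* fell by 1.06. At an unadjusted p-value under 0.05, 9 were higher and 4 lower in WT cells and 7 higher and 5 lower in PPARγ/+ cells, where 46.8% and 54.4% of all genes passed. Without WT_5d replicate 3, *Egln3* was also called risen in WT cells. The median log2 fold change of the 19 genes was 0.45 in WT and 0.23 in PPARγ/+ cells, beside −0.08 and −0.10 for all genes.

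*Car5b*, the mitochondrial enzyme, had the narrowest span of the 6 members with a median above 1 FPKM in at least 1 group. Its 12 libraries ranged from 5.21 FPKM in WT_0d to 11.1 FPKM in WT_5d replicate 3. The log2 fold change over 5 days was 0.47 (95% interval 0.02 to 0.91) in WT and 0.26 (0.04 to 0.48) in PPARγ/+ cells, so that both intervals lay below 2-fold.

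**Figure D2:**
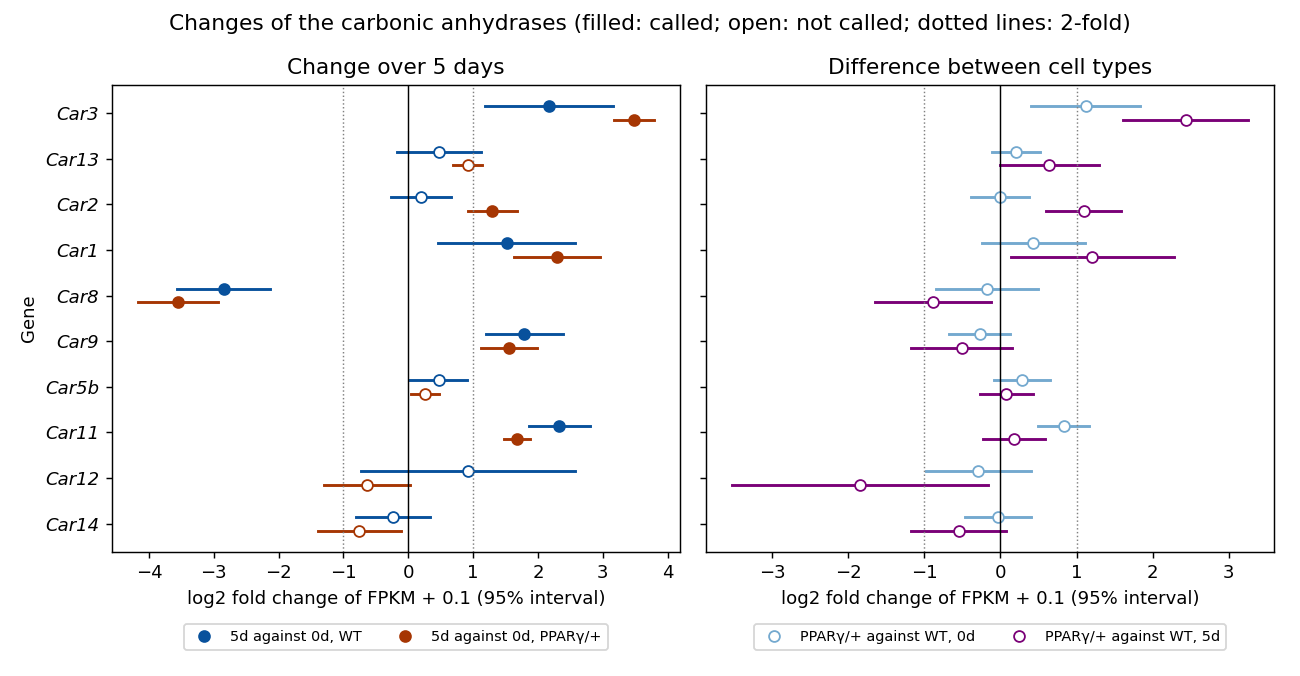
Fitted log2 fold change of FPKM + 0.1 (horizontal axis, with 95% intervals) for 8 of the 9 carbonic anhydrases and for *Car1* and *Car11*, over 5 days in each cell type (left) and between the cell types on each day (right); filled points were called. *Car8* lies at −2.85 and −3.56 on the left, *Car3* at 2.16 and 3.48, and no point on the right is filled.

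The second comparison asks how PPARγ/+ cells differed from WT cells on the same day, with calls at a limma adjusted p-value no higher than 0.05 and 2-fold or more. On 0d none of the 8 genes tested was called by limma, where 1.59% of all genes were, and on 5d none was, where 0.155% of all genes were. At an unadjusted p-value under 0.05, 1 of 8 passed on 0d (*Car3*) and 4 of 8 on 5d (*Car2*, *Car3*, *Car8* and *Car12*), beside 21.7% and 12.7% of all genes. Limma with voom weights on fragments recovered from the FPKM, an alternative chosen after seeing the data, called *Car3* on both days, alone among the 8.

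On 5d the mean of *Car3* was 5.10-fold higher in PPARγ/+ than in WT cells, a log2 difference of 2.43 (SE 0.33, limma adjusted p = 0.0795). *Car2* was 2.16-fold higher (log2 difference 1.10, SE 0.20, limma adjusted p = 0.123). *Car8* was lower, with a log2 difference of −0.89 (limma adjusted p = 0.333), and *Car13* higher with 0.64 (95% interval −0.00 to 1.29), or 0.92 (0.52 to 1.33) without WT_5d replicate 3. Libraries of the cell types did not overlap on 5d for any of these 4 genes. The share of all genes without overlap was not counted, so this is a description only. *Car9* (−0.51, 95% interval −1.17 to 0.15) and *Car5b* (0.08, −0.27 to 0.42) overlapped.

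The calls on 5d depended on WT_5d replicate 3 and on the fit. All 12 libraries in one fit called *Car3* and *Car2* (limma adjusted p = 0.00509 and 0.0161) at the same sizes. Without WT_5d replicate 3, 3 of the 8 genes were called, *Car3* at 2.49 (limma adjusted p = 0.0319), *Car2* at 1.24 (limma adjusted p = 0.0304) and *Car12* at −2.56 (limma adjusted p = 0.0325), while the genes called in all went from 28 to 723. The sizes for *Car3* and *Car2* were close to those with all libraries.

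On 0d, *Car3* was the member with the largest difference, 2.07-fold higher in the mean of PPARγ/+ than of WT cells (log2 difference 1.12, SE 0.29, limma adjusted p = 0.0999). *Car2* differed by −0.01 with a 95% interval from −0.39 to 0.37, and *Car13* by 0.20 with one from −0.12 to 0.52. For both the interval excluded a 2-fold difference.

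The third comparison asks whether the change over 5 days was unlike in WT and PPARγ/+ cells. An interaction term over all 12 libraries gave the log2 change of PPARγ/+ cells less the log2 change of WT cells. None of the 8 genes was called by limma at an adjusted p-value up to 0.05, where 0.760% of all genes were, and none with voom weights. At an unadjusted p-value under 0.05, 2 of 8 passed, beside 2164 of all 18023 genes. These were *Car2*, with a coefficient of 1.10 (SE 0.26, limma adjusted p = 0.0975), and *Car3*, with 1.31 (SE 0.46, limma adjusted p = 0.27). Without WT_5d replicate 3, *Car2* was called with 1.25 (limma adjusted p = 0.0321), and the genes called in all went from 137 to 527. The call of *Car2* over 5 days in PPARγ/+ cells and its absence in WT cells is therefore not shown to be a difference between them with all libraries. For *Car9* the coefficient was −0.24 (95% interval −0.94 to 0.47) and for *Car8* −0.71 (−1.64 to 0.22).

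Summed over the 9 genes, the level lay between 113 and 156 FPKM in WT_0d, 145 and 269 in WT_5d, 146 and 176 in PPARγ/+_0d and 486 and 556 in PPARγ/+_5d. The make-up of that sum moved from *Car13* towards *Car3*. *Car13* held 68.5% to 72.3% of it in WT_0d and 34.8% to 42.9% in PPARγ/+_5d. *Car3* held 6.94% to 11.4% in WT_0d, 21.0% to 35.0% in WT_5d, 13.6% to 19.1% in PPARγ/+_0d and 51.8% to 59.6% in PPARγ/+_5d. The ratio of *Car3* to *Car13* within a library, which does not depend on the scaling of libraries, was 0.096 to 0.167 in WT_0d, 0.301 to 0.627 in WT_5d, 0.197 to 0.296 in PPARγ/+_0d and 1.21 to 1.71 in PPARγ/+_5d. None of these 4 ranges overlapped another. The share of *Car8* went from 8.54% to 10.3% in WT_0d to 0.121% to 0.203% in PPARγ/+_5d.

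**Figure D3:**
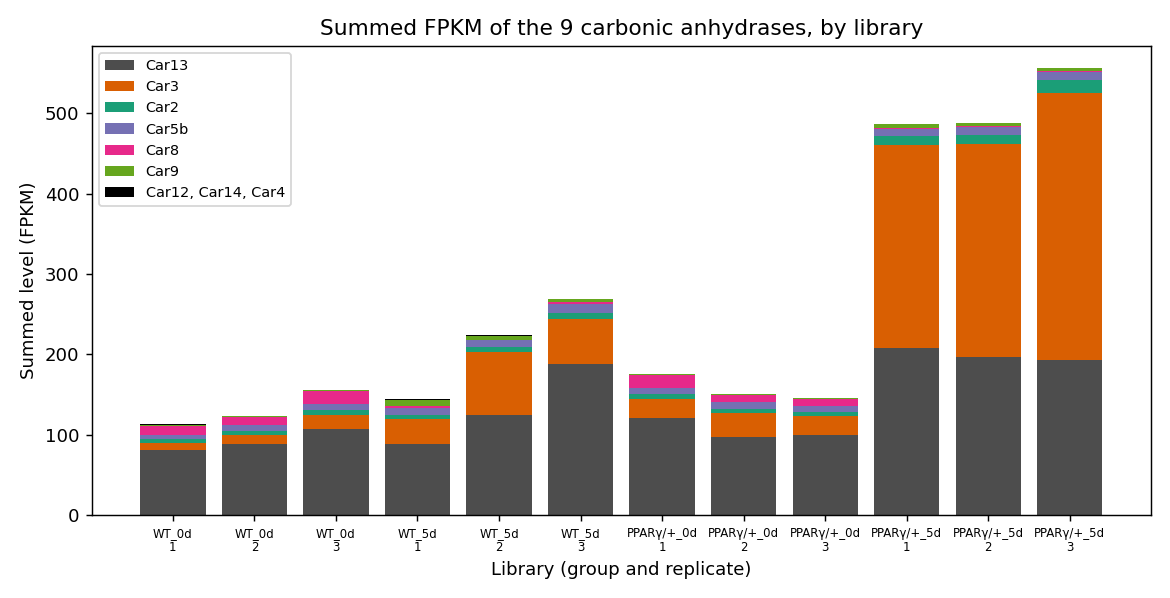
Summed FPKM of the 9 carbonic anhydrases (vertical axis) in each of the 12 libraries, with each gene's part stacked by colour. *Car13* makes up most of the bar in all 9 libraries outside PPARγ/+_5d, and *Car3* more than *Car13* in the 3 libraries of PPARγ/+_5d, at 51.8% to 59.6%.

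Markers of adipocytes and of slow muscle fibres moved in the same libraries. Of the 11 adipocyte markers 9 were tested, and 7 of these rose from 0d to 5d in PPARγ/+ cells and 1, the fatty acid transporter *Cd36*, in WT cells. Their summed level was 12.8 to 17.3 FPKM in WT_0d, 17.7 to 21.7 in WT_5d, 21.8 to 28.4 in PPARγ/+_0d and 65.9 to 172 in PPARγ/+_5d. The adipokine gene *Adipoq* was at 0 to 0.0313 FPKM in WT libraries, 1.06 to 2.46 in PPARγ/+_0d and 8.03, 12.7 and 40.5 in PPARγ/+_5d, and *Lep*, which encodes leptin, was at 0 in all 12. PPARγ/+_5d replicate 3, the highest in *Adipoq* and in *Pparg* (92.7 FPKM), was also the highest in *Car3* (331 FPKM) and *Car2* (16.5 FPKM). Within its group it was also the highest in *Car5b* (10.1 FPKM). It lay between the others in *Car9* (3.55 FPKM) and was the lowest in *Car13* (194 FPKM) and *Car8* (0.670 FPKM). This describes a single library. Without that library the 4 calls over 5 days in PPARγ/+ cells stood, *Car2*, *Car3*, *Car8* and *Car9*.

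Of the 11 slow fibre genes 10 were tested, and 8 rose in each cell type, beside 8.94% of all genes in WT and 9.11% in PPARγ/+ cells. They were led by *Mb* (myoglobin) and *Tnni1* (slow troponin I), while *Tpm3*, a tropomyosin, fell in PPARγ/+ cells. The summed level of the 11 genes was 438 to 2035 FPKM in WT_5d, with a median of 1501, and 439 to 559 FPKM in PPARγ/+_5d, with a median of 483. A single gene of the 11, *Tnnc1*, held the largest part of this sum in every library of 5d. The group with the highest *Car3* was not the one with the highest median of this sum. On 5d, PPARγ/+ cells were also set against WT for these lists. With all libraries none of the 10 slow fibre genes or 10 myogenic markers was called. Of the 9 adipocyte markers 2 were called higher, where 28 of all 18023 genes were called. Without WT_5d replicate 3, 9 of the 10 slow fibre genes and 8 of the 10 myogenic markers were called lower. In that setting 6 of the 9 adipocyte markers were called higher, and 723 of all genes were called. The part of either set of cells in the level of *Car3* or *Car2* was not tested.

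*Car12* encodes a transmembrane enzyme of epithelia with an outward active site. Its gene length was inferred, so its fragments are the smallest whole numbers that fit the FPKM. It was low throughout, at 8, 12 and 20 fragments in the WT_0d libraries and 116, 30 and 6 in those of WT_5d. PPARγ/+_0d libraries held 7, 18 and 5 fragments and PPARγ/+_5d libraries 1, 2 and 2. WT_5d thus spread from 6 to 116 fragments and overlapped WT_0d, while the PPARγ/+_5d libraries were below all others and within the floor of 3 fragments. In FPKM the mean was 0.129 in WT_0d, 0.468 ± 0.485 (SD, n = 3) in WT_5d, 0.0886 in PPARγ/+_0d and 0.0183 in PPARγ/+_5d.

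The log2 fold change of *Car12* in WT cells was 0.92 (SE 0.68, limma adjusted p = 0.338). It was 1.64 and called without WT_5d replicate 3 (limma adjusted p = 0.0431), the library with 6 fragments. In PPARγ/+ cells the pooled fragments went from 30 on 0d to 5 on 5d, a ratio per fragment on genes of 5.01 with an exact 95% interval of 1.92 to 16.5, which like the others covers counting error only. The fitted log2 value of −0.64 (limma adjusted p = 0.103) depends on the 0.1 added to the FPKM. It was −1.69 with 0.01 added and −1.89 with voom weights, where *Car12* was called. On 5d the WT libraries held 152 fragments against 5 in PPARγ/+ libraries, a ratio of 27.3 (11.4 to 85.2), or 10.4 (4.05 to 33.8) without WT_5d replicate 1, which held 116 of the 152. The interaction of *Car12* was −1.56 (SE 0.78, limma adjusted p = 0.47), or −2.27 (SE 0.54, limma adjusted p = 0.0537) without WT_5d replicate 3. The study called *Car12* risen in WT cells and fallen in PPARγ/+ cells over differentiation, and reported the same directions by qRT-PCR. Its calls came from DESeq2 and unadjusted p-values, so they and the limma adjusted p-values here are not like for like. The qRT-PCR measurements were not used here. As the study chose *Car12* on these libraries, none of the values above is independent evidence of its direction.

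*Car14*, a transmembrane enzyme known from retina, muscle and other tissues, was at 6 to 8 fragments in WT_0d, 4 to 6 in WT_5d, 5 to 9 in PPARγ/+_0d and 3, 2 and 0 in PPARγ/+_5d. The latter group was again at the floor and below all other libraries. Pooled fragments in PPARγ/+ cells went from 22 to 5, a ratio of 3.67 (exact 95% interval 1.36 to 12.4), and on 5d WT and PPARγ/+ cells held 15 and 5, a ratio of 2.69 (0.929 to 9.46). *Car4*, the lipid-anchored enzyme, had 0 fragments in 11 libraries, which allows up to 3 in each, and 2 in PPARγ/+_5d replicate 2, so no change could be detected at this depth. In PPARγ/+ cells on 5d the 3 transmembrane enzymes thus stood far apart, *Car9* called risen and the other two at 3 fragments or fewer per library.

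**Figure D4:**
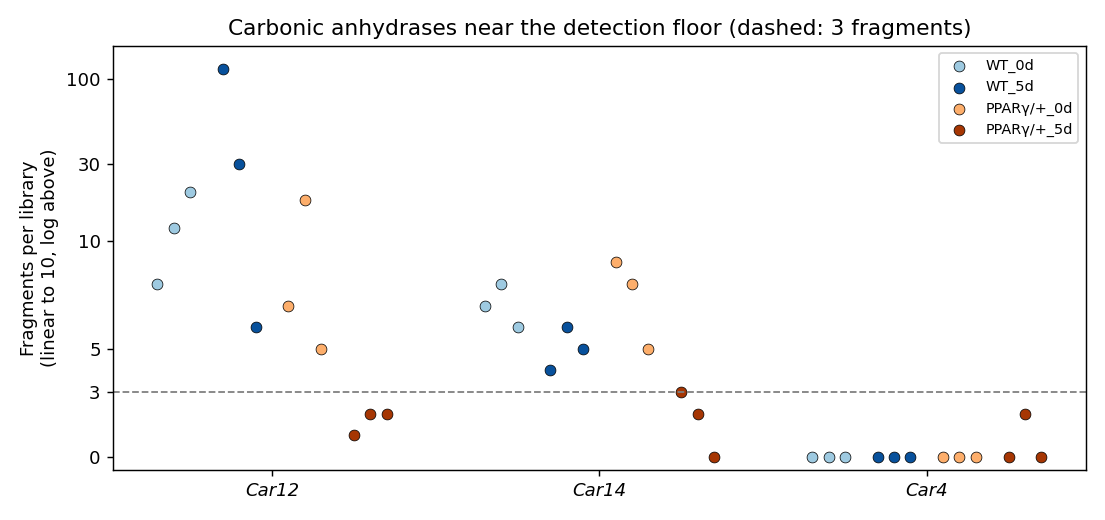
Fragments per library (vertical axis, linear to 10 and logarithmic above) of *Car12*, *Car14* and *Car4*, coloured by group, with the floor of 3 fragments dashed. *Car12* spreads from 6 to 116 fragments in WT_5d, and all 3 PPARγ/+_5d libraries sit at 3 or fewer fragments for each gene.

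Of the 7 remaining family members 5 were tested. *Car1*, *Car11* and the secreted *Car6* were called risen in PPARγ/+ cells, and *Car1* and *Car11* in WT cells, beside 9.11% and 8.94% of all genes. *Car6* had 7, 31 and 10 fragments in PPARγ/+_0d and 46, 42 and 17 in PPARγ/+_5d, which overlapped (log2 fold change 1.26, SE 0.47, limma adjusted p = 0.0666). *Car7*, a cytosolic enzyme of brain, stayed at 5 to 17 fragments in all libraries and *Car15* at 0 to 6, and neither was called in any comparison. *Car15* shares 1253 bp of exons with *Gm20518* on the same strand, so its count is uncertain. *Car5a* had 1 fragment in each of 2 libraries and *Car10* none in any.

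The partners of these enzymes include transporters of bicarbonate, protons and lactate. Of 28 such genes 19 were tested, of which 2 rose and 2 fell in WT cells and 3 rose and 2 fell in PPARγ/+ cells, beside the 16.5% and 15.2% of all genes called. In WT cells the chloride-bicarbonate exchanger *Slc4a3* (2.05, SE 0.35) and the endosomal sodium-proton exchanger *Slc9a9* (1.54, SE 0.23) rose. Both rose in PPARγ/+ cells too, *Slc4a3* by 1.08 (SE 0.12) and *Slc9a9* by 1.43 (SE 0.16), as did *Emb*, which encodes embigin, a chaperone of lactate transporters (1.12, SE 0.05). *Slc4a11* and the sodium-driven exchanger *Slc4a8* fell in both cell types, by 1.46 and 1.10 in WT and by 1.03 and 1.13 in PPARγ/+ cells on the log2 scale. None of the 19 was called by limma, with or without voom weights, between the cell types on either day or in the interaction. At an unadjusted limma p-value under 0.05, 5 passed on 0d, 3 on 5d and 3 in the interaction. Of all genes, 21.7% passed on 0d, 12.7% on 5d and 2164 of 18023 in the interaction. Without WT_5d replicate 3, *Slc4a3* and the lactate transporter *Slc16a3* were called lower in PPARγ/+ cells on 5d and in the interaction, and *Slc4a3* rose by 2.46 (SE 0.14) in WT cells. The median log2 fold change over 5 days was 0.03 in WT and −0.00 in PPARγ/+ cells, beside −0.08 and −0.10 for all genes.

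For each of the 6 members with a median above 1 FPKM in at least 1 group, the 3 genes with the highest Pearson r on log2(FPKM + 0.1) over the 12 libraries were sought among 11681 genes. The 12 libraries fall into 4 groups, so r mostly follows the group means and is given as a description. *Car3* was closest to *Tspan17* (0.9779), *Aoc3* (0.9778) and *Ctsh* (0.9706). *Aoc3*, an amine oxidase abundant in adipocytes and smooth muscle, had mean levels of 0.809, 5.21, 2.11 and 17.3 FPKM in WT_0d, WT_5d, PPARγ/+_0d and PPARγ/+_5d, the same order as *Car3*. The means of *Tspan17* and *Ctsh* had that order too, so it is not particular to *Aoc3*. *Car2* was closest to *Clk4* (0.9683), *Lipe* (0.9512) and *Gatb* (0.9464). *Lipe* encodes hormone-sensitive lipase and is one of the adipocyte markers, with means of 0.790, 1.56, 1.17 and 5.22 FPKM in the same groups.

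*Car8* was closest to *Ap3m1* (0.9891), *Mak16* (0.9863) and *Metap1* (0.9849), which all had lower means on 5d, *Mak16* for example 16.1 FPKM in WT_0d and 9.11 in WT_5d. Among the genes closest to *Car9* were *Gpr155* (0.9829) and *Pcdhb16* (0.9810). *Car13* was closest to *Tpst1* (0.9659), *Emb* (0.9655) and *Fam229b* (0.9655), and *Car5b* to *Lrig3* (0.9466), *Gm26578* (0.9306) and *Zfp862-ps* (0.9215). *Emb* thus appeared both among the transport genes that rose and beside *Car13*, with means of 9.16, 17.3, 11.2 and 24.5 FPKM.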

How the data were processed

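RNA was measured by paired-end sequencing of TruSeq libraries. The authors trimmed the reads, aligned them with STAR, counted them on genes with HTSeq and deposited FPKM per gene and library. The study's methods name GRCm38 and the submitters' processing notes name mm9, and annotated GRCm38 exonic lengths gave whole fragments (within 0.001) for 21058 of 27138 expressed genes. For the other 6080, *Car12* included, the length was inferred as the smallest that gave whole fragments in every library, so their fragments could be multiples lower than the true ones. Fragments were recovered as FPKM × length × the mapped read pairs the study gives per library. A second table of log2 values was not used.

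limma 3.58.1 (R 4.3.3, empirical Bayes with trend) was run on log2(FPKM + 0.1) of 18023 genes with at least 0.1 FPKM in at least 3 libraries. A fold change is on that scale, which understates low genes. Each pairwise comparison used its own 6 libraries and the interaction all 12, and p-values were adjusted by Benjamini-Hochberg over all genes tested. The main fits used no count model, because FPKM are not counts, and voom weights on recovered fragments served as an alternative. The limma scripts were tested on simulated data. Python 3.11.15 with pandas 2.3.3, numpy 2.4.6 and matplotlib 3.10.9 served for tables and figures. Intervals of pooled fragments are exact binomial (95%), and they and the floor of 3 fragments cover counting error only.

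The members, gene lists and tests were chosen with earlier results of these data known. Named genes are all members, *Pparg*, *Myod1* and *Myog*, up to 2 called genes of each list with the largest change each way (mean in the higher group 1 FPKM or more), and the 3 genes most alike each member, of which 1 is not reported here. Other family members, *Adipoq*, *Lipe* and *Lep* in every group, and *Cd36* among WT cells were also named after their values were seen. The 12 libraries differed from each other at 21594 genes or more, so none was counted as a duplicate. Alternatives were other pseudocounts, filters and scaling, a replicate block, one fit of all libraries, adjusted p-values, each library left out, and voom weights. Voom and the gene lists without WT_5d replicate 3 were added after seeing the data. *Egln3*, *Slc16a3*, *Tnnc1* and *Slc4a3* outside WT cells were named after their values were seen.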

Additional observations from a re-analysis of the deposited data

How the results depend on the processing

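The counts of carbonic anhydrases called over 5 days stayed at 3 in WT cells in every alternative except without WT_5d replicate 3, and leaving out each library gave 3 to 4 in WT and 4 to 5 in PPARγ/+ cells. In PPARγ/+ cells the count was 6 with a pseudocount of 0.01 and with voom weights, which added *Car12* and *Car14*, and 5 with median-ratio scaling, which added *Car13*. On 0d none was called in any alternative except voom, which called 1. On 5d all 12 libraries in one fit called 2 (*Car2* and *Car3*), voom 1, and leaving out each library gave 0 to 3, the 3 without WT_5d replicate 3. In the interaction leaving out each library gave 0 to 1, the 1 without WT_5d replicate 3. Of 558 recomputed log2 fold changes of members, 538 kept their direction and side of the threshold. The one fit of all libraries is not among these values.

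The sign turned for 7 small differences. With each library left out, *Car2* on 0d ranged from −0.096 to 0.14 and was positive without WT_0d replicate 3, PPARγ/+_0d replicate 2 or PPARγ/+_0d replicate 3. *Car14* on 0d ranged from −0.12 to 0.065 and was positive without WT_0d replicate 1 or PPARγ/+_0d replicate 3. *Car5b* on 5d ranged from −0.017, without WT_5d replicate 2, to 0.22, and the *Car9* interaction from −0.43 to 0.039, the latter without WT_5d replicate 1. The cause was not tested.

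Same-numbered libraries correlated in their deviations between −0.0678 and 0.0834, so the numbers were not taken to pair them. In PPARγ/+ cells over 5 days every library correlated best with its own number (0.034 to 0.0834), and in the other comparisons not every one did. With the replicate block the members called were 3, 4, 0, 0 and 0 for WT, PPARγ/+, 0d, 5d and the interaction, and all genes called were 3029, 2766, 0, 0 and 61, against 2970, 2735, 287, 28 and 137 without it.

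The number of all genes called over 5 days went to 1441 in WT and 1241 in PPARγ/+ cells with a pseudocount of 1, and to 1806 in PPARγ/+ cells with a filter of 1 FPKM, which tests 12290 genes. On 0d it was 115 with a pseudocount of 1, 107 with no filter, 482 with voom and 55 to 137 with a library left out. On 5d it was 8 and 71 with pseudocounts of 1 and 0.01, 199 in one fit of all libraries and 1 to 723 with a library left out. In the interaction it was 90 with voom and 42 to 527 with a library left out. Median-ratio scaling moved the median of all genes by 0.11 in WT and 0.12 in PPARγ/+ cells over 5 days on the log2 scale, and turned no member's direction. The 5 pooled fragments of *Car12* and of *Car14* in PPARγ/+_5d limit those folds to their counting intervals.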

Other observations

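Of 9 enzymes that use bicarbonate 8 were tested. Over 5 days 2 of the 8 were called in WT and 1 in PPARγ/+ cells, beside 16.5% and 15.2% of all genes. *Pcx*, pyruvate carboxylase, rose in both cell types, with log2 fold changes of 1.54 (SE 0.12) in WT and 1.08 (SE 0.07) in PPARγ/+ cells. *Cad*, which starts pyrimidine synthesis, fell by 1.16 (SE 0.15) on the log2 scale in WT cells and was the other gene called there. It went from between 11.9 and 16.1 FPKM to between 7.58 and 8.23 FPKM in PPARγ/+ cells, where it was not called. None of the 8 was called by limma, with or without voom weights, between the cell types on 0d, on 5d or in the interaction. At an unadjusted limma p-value under 0.05, 5, 1 and 1 passed there. Of all genes, 21.7% passed on 0d, 12.7% on 5d and 2164 of 18023 in the interaction.

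Among the genes known to be induced by hypoxia, *Hk2*, which encodes a hexokinase, was called lower on 0d in the PPARγ/+ cells, with a log2 difference of −1.06 (SE 0.10, limma adjusted p = 0.0121). Its WT_0d libraries held 7.96, 8.37 and 7.74 FPKM and its PPARγ/+_0d libraries 3.93, 3.33 and 4.16 FPKM. *Car6* had 131 fragments in WT_0d replicate 1 and 9 and 25 in the other WT_0d libraries, so its WT values rest on that library. These values were chosen after they were seen.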
